A study of Homo sapiens with 6 samples.

Results

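The IL-6 family genes described here are 10 of the 22989 genes in the count table, found by gene symbol. They are the cytokines Il6, Lif and Il11, the receptor chains Il6ra, Il11ra1, Lifr, Osmr and Il6st, and the inhibitors Socs1 and Socs3. The study sequenced RNA of 3 WT samples and 3 LINC00115 KD samples. All 6 are labelled as MDA-MB-231 PTX-resistant BCSC. MDA-MB-231 cells are an established line from a human breast tumour of the triple-negative type, PTX stands for paclitaxel, and BCSC are breast cancer stem-like cells, sorted in the study for aldehyde dehydrogenase activity. The KD cells carry an shRNA against the long non-coding RNA LINC00115. The study names 1 of its LINC00115 shRNAs, sh115-2, for its RNA-seq comparison, while the sample labels of the KD group run from sh115-1 to sh115-3, and whether these numbers stand for shRNAs or for replicates was not settled here. The study used a control shRNA elsewhere, and the labels call the controls WT without saying whether they carry one. The comparison addresses how loss of LINC00115 alters the transcriptome of these cells. The labels do not say whether the 3 libraries of a group came from separate cultures, and p-values then measure only the spread between these libraries, which may be technical.

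The gene names are those of a mouse annotation, 4648 of them with Gm names and 1129 with Rik names. Of 22989 symbols, 16 equal a human symbol as written. The counts were thus assigned to mouse genes, although the samples are labelled human. The organism of the reads themselves was not settled here. In mouse spelling Il6ra, Il11ra1 and Il6st are the genes that human annotation calls IL6R, IL11RA and IL6ST. LINC00115 is in the table under 0 rows, so the knockdown could not be checked, and each direction below rests on the labels. Of the genes listed as a check of the labelled cells, Vim had 126885 to 145878 counts and Cd44 32751 to 36274. Others were also well counted, with 72342 to 104731 counts for Fn1 and 5687 to 10666 for Cd24a. Some were near 0, with 0 to 2 counts for Cdh2, 0 to 3 for Prom1 and 0 to 4 for Sox2. Aldh1a1 had 8 to 17 counts in WT and 39 to 52 in KD. Library totals lay between 36979221 and 38799331 counts.

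Cytokines of the IL-6 family signal through receptor complexes that share the chain gp130, encoded by Il6st. IL-6 and IL-11 first bind their own alpha chains, Il6ra and Il11ra1. LIF pairs gp130 with the LIF receptor, and oncostatin M can pair it with the oncostatin M receptor, Osmr. The complexes activate JAK kinases and STAT3, which in turn induces Socs3, a protein that blocks gp130 signalling. Socs1 brakes JAK kinases as well and is known as an interferon-induced gene. In breast cancer cells IL-6 and STAT3 are known for their link to stem-like properties.

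All 10 genes passed the filter on low counts, and they moved in both directions. Il6 and Socs1 were called higher in KD and Il11 and Lifr lower, where a call needs both a change of more than 2-fold and an adjusted p below 0.05 in edgeR's quasi-likelihood test across 13497 genes. Among all genes tested, 10.2% were called higher and 9.98% lower. Without the fold threshold all 10 passed, 6 higher and 4 lower, but 73.4% of all genes did so, 36.7% in each direction. In 9 of the 10 the KD and WT libraries did not overlap, against 75.6% of all genes tested. The median log2 fold change of the 10 genes was 0.19, and that of all genes tested −0.01. A share near that of all genes says little of the family as a group, so the values of each gene follow. In bulk RNA, fewer cells expressing a gene and less of its RNA per cell cannot be told apart.

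**Figure D1:**
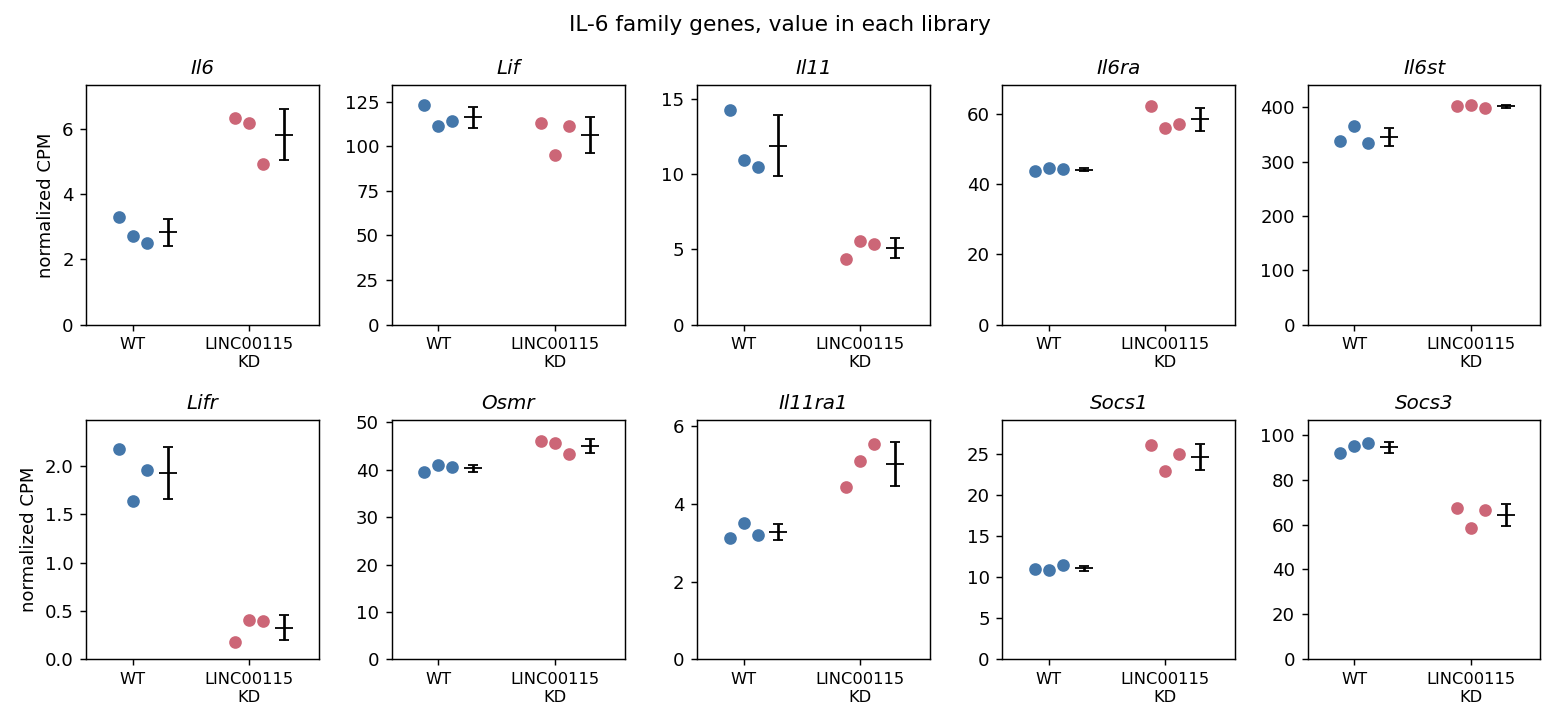
Normalized CPM (counts scaled to library size with TMM; linear axis from 0, own scale in each panel) of the 10 IL-6 family genes in each library, WT in blue and LINC00115 KD in red, with the mean and SD of 3 libraries in black. The groups are apart in every panel except that of Lif, where WT lies between 111 and 123 and KD between 94.9 and 113.

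Markers of other cell types differed between the groups as well. Among all genes tested, the groups did not overlap in 75.6%, in either direction. Of all genes, 10.2% were called higher and 9.98% lower, and 36.7% passed the adjusted p in each direction. Of 12 lung epithelial genes, 12 had all KD libraries above all WT libraries, with a summed level of 1.73 to 2.12 normalized CPM in WT and 75.4 to 86.6 in KD. In this list 11 genes were tested and 11 were called higher. Scgb1a1, the club cell secretoglobin, had 0 counts in each WT library. Of 12 kidney genes, 9 had all KD libraries above all WT libraries, with a sum of 16.7 to 19.5 in WT and 45.5 to 49.0 in KD. In the kidney list 10 genes were tested and 7 were called higher. In 1 kidney gene, Cubn, all KD libraries were below all WT libraries (log2 fold change −0.45, adjusted p = 0.00372, edgeR). The 16 leukocyte genes summed to 73.1 to 87.2 in WT and 145 to 160 in KD. Most of the difference was S100a8, with a mean of 33.0 normalized CPM in WT and 95.2 in KD. Cd68, with means of 42.8 in WT and 47.2 in KD, did not pass the test (adjusted p = 0.0901, edgeR). Among the 16 genes, 4 were called higher, of 7 tested. Ptprc, the common leukocyte antigen, had 5 to 12 counts in WT and 8 to 13 in KD, and Cd3e, a T cell gene, had 0 counts in all libraries. The 12 fibroblast genes summed to 176 to 194 in WT and 78.5 to 81.8 in KD, most of which was Pdgfra, and Lum had 0 to 2 counts in any library. By gene, 2 of the fibroblast list were called lower and 3 higher, the latter Fap, Acta2 and Tagln at 5 to 15, 2 to 7 and 5 to 12 counts in WT and 11 to 56, 14 to 27 and 17 to 36 in KD. The sum of 10 endothelial genes went from 9.74 to 11.7 in WT to 66.0 to 67.6 in KD, carried by Cdh5 with 5 to 14 counts in WT and 2136 to 2243 in KD, while Pecam1 had 6 to 11 and 7 to 19. In that list 2 genes were higher and 2 lower at the adjusted p, the latter Tie1 (log2 fold change −1.61) and Egfl7 (244 to 302 counts in KD against 296 to 383 in WT). The sum of 12 epithelial genes was 603 to 612 in WT and 968 to 1020 in KD, carried by Krt8 and Krt18, while Epcam had 0 to 5 counts. By gene, 2 of this list were called higher, Cdh1 and Grhl2, and 1 lower, Krt14 (log2 fold change −1.55). Krt14 had 7, 30 and 192 counts in WT and 31, 28 and 19 in KD. Krt5 had 92 counts in WT replicate 3 and 0 in every other library. The part of these markers in the changes below was not tested.

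Il6, the cytokine that names the family, was counted 124, 103 and 94 times in the WT libraries and 245, 227 and 187 times in the KD libraries. The lowest KD library lay well above the highest WT library. Il6 rose from 2.84 ± 0.412 to 5.81 ± 0.775 normalized CPM (± SD over 3 libraries per group), and the log2 fold change, KD minus WT, was 1.03 (standard error, SE, 0.19, adjusted p = 9.37e-06, edgeR). The 95% interval of the log2 fold change, 0.65 to 1.42, held the threshold of a doubling. The rise passed the adjusted p in all 14 alternatives, but it was under 2-fold with upper quartile scaling (0.99) and without WT replicate 3 (0.95), KD replicate 1 (0.98) or KD replicate 2 (1.00, 0.998 unrounded). Among all genes tested, 10.1% had a larger fitted rise.

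A promoter is shown for Il6 because its rise is one of the calls and a searched motif was found in the human promoter. In that of human IL11, whose namesake was also called, none of the searched motifs was found, and it is not shown. With no mouse sequence used here, the sequences come from the human genes of the same names in RefSeq (GRCh38.p14), so their link to the counts rests on the names alone. A window of 90 bases upstream of the start site of human IL6 lies at chr7:22727087-22727176 on the plus strand. Its capitals mark an NF-kB site, searched on both strands as GGGA and TTTCC with 1 base of any kind between them, which begins 73 bases before the start site.

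IL6: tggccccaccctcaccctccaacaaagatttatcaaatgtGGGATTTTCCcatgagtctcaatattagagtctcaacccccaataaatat

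The site was found in 0.558% of 35116 human promoters (250 bases before to 50 after the start site) and in 1 of the 13 promoters that matched 9 of the 10 genes. A match is a description of the letters, not of binding.

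Il11, which acts on stromal and blood-forming cells through its own alpha chain, went the other way. Its counts were 536, 413 and 396 in WT and 168, 203 and 204 in KD. Every KD library was under the lowest WT library, and WT replicate 1 was the highest of its group. The level fell from 11.9 ± 2.04 to 5.08 ± 0.644 normalized CPM (± SD over 3 libraries per group), and the fitted log2 difference was −1.23 (SE 0.14, adjusted p = 1.22e-09, edgeR). It was called in each of the 14 alternatives, with values from −1.31 to −1.08.

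Lif, which holds mouse embryonic stem cells in an undifferentiated state, was counted 4635, 4202 and 4313 times in WT and 4369, 3483 and 4224 times in KD. KD replicate 1 lay above WT replicates 2 and 3 in counts, and the groups overlapped. The level was 116 ± 6.12 normalized CPM in WT and 106 ± 9.97 in KD (± SD over 3 libraries per group). The log2 fold change of −0.13 had a 95% interval of −0.23 to −0.02 and an adjusted p of 0.0267 in edgeR. This p did not hold without KD replicate 2 (−0.04, adjusted p = 0.458), without WT replicate 1 (−0.08, adjusted p = 0.149) or with DESeq2's Wald test (−0.12, adjusted p = 0.0676), within a range of 0.00456 to 0.458 over the alternatives.

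**Figure D2:**
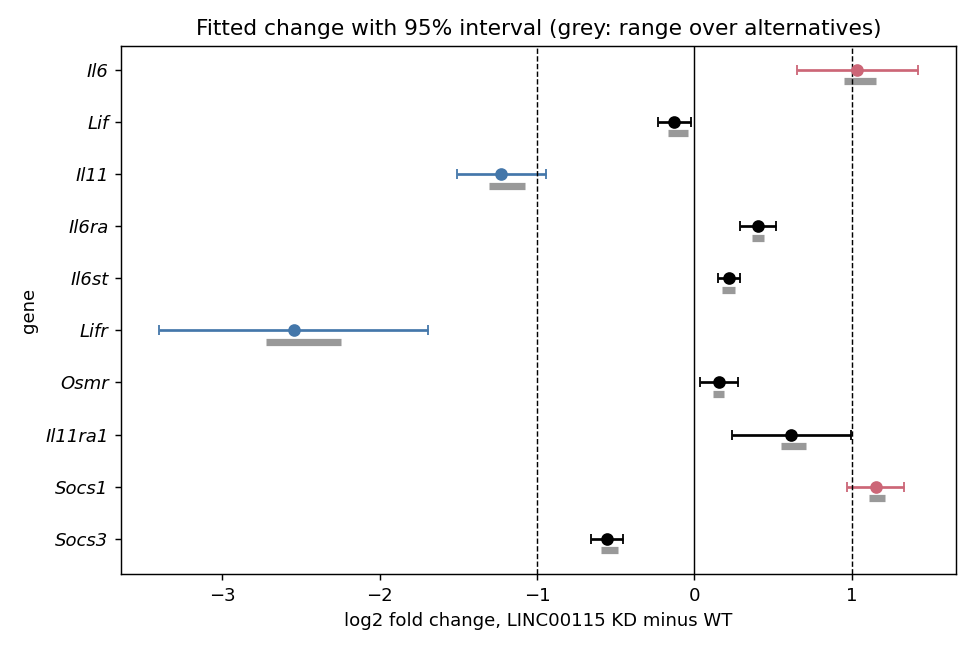
Fitted log2 fold change (KD minus WT) of the 10 genes with its 95% interval, red where called higher, blue where called lower and black otherwise. Dashed lines mark a fold change of 2 and grey bars the range over the alternatives, which for Il6 runs from 0.95 to 1.16 across the dashed line and for Lif ends at −0.04.

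Among the receptor chains Lifr stood apart. It encodes the LIF receptor, which also serves cardiotrophin 1, ciliary neurotrophic factor and the cytokine Clcf1. Its counts were 82, 62 and 74 in the WT libraries and 7, 15 and 15 in the KD libraries. The groups were far apart, although each value rests on few reads. Lifr fell from 1.93 ± 0.269 to 0.328 ± 0.128 normalized CPM (± SD over 3 libraries per group), and the fitted log2 difference was −2.55 (SE 0.42, 95% interval −3.40 to −1.69, adjusted p = 1.95e-06, edgeR). Of all genes tested, 1.55% had a larger fitted fall. The value ranged from −2.72 to −2.25 over 13 alternatives, and under the filter that asks for 10 counts in every sample Lifr was not tested.

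The other receptor chains differed by less than 2-fold, all of them upward. Il6ra, the IL-6 receptor alpha chain, had 1645, 1683 and 1670 counts in WT and 2409, 2052 and 2170 in KD. These groups did not overlap, and the log2 difference was 0.41 (SE 0.06, adjusted p = 7.51e-08, edgeR). Il11ra1, the alpha chain for IL-11, had 117, 132 and 121 counts in WT and 171, 187 and 210 in KD, a log2 difference of 0.62 (SE 0.19, adjusted p = 0.00354). Its near-identical mouse copy Il11ra2 was counted 0 to 2 times in any library, and with both summed the change of Il11ra1 kept its direction and passed the test. Osmr, the oncostatin M receptor, had 1487, 1547 and 1532 counts in WT and 1781, 1674 and 1642 in KD. Its log2 fold change of 0.16 (95% interval 0.04 to 0.28, adjusted p = 0.0167, edgeR) did not pass with upper quartile scaling (0.12, adjusted p = 0.0759) or without KD replicate 1 (0.15, adjusted p = 0.0541), and its adjusted p ranged from 0.0122 to 0.0759 over the alternatives.

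Il6st, the gp130 chain common to these receptors, had 12730, 13773 and 12626 counts in WT and 15588, 14816 and 15147 in KD. The lowest KD library was above the highest WT library. The level went from 346 ± 16.7 to 402 ± 2.60 normalized CPM (± SD over 3 libraries per group), and the fitted log2 difference was 0.22 (SE 0.04, adjusted p = 1.12e-06, edgeR), which corresponds to a 1.16-fold difference.

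Human LIFR has 3 start sites among the RefSeq promoters, of which 2 hold a STAT site, searched as TTCNNNGAA, which reads alike on both strands. They are shown because Lifr had the largest fold change of the 10 genes and its ligands act through STAT proteins. The windows, both read on the minus strand, lie at chr5:38595521-38595610 and chr5:38557600-38557689, and capitals mark sites that begin 165 and 182 bases before their start sites.

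LIFR, most upstream start site: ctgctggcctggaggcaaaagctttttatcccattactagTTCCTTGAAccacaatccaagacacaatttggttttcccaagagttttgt

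LIFR, middle start site: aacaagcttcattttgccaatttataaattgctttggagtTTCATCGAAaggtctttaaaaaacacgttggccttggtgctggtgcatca

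Such a site occurred in 7.66% of all promoters and in 2 of the 13, both of LIFR. The short hypoxia response element ACGTG, searched because the study turns to HIF1, occurred in 21.4% of all promoters and in 3 of the 13, of LIFR and OSMR.

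The 2 inhibitors moved apart. Socs1 was counted 416, 411 and 433 times in WT and 1009, 844 and 952 times in KD. Every KD library was well above every WT library, with little spread in either group. Socs1 rose from 11.1 ± 0.296 to 24.7 ± 1.58 normalized CPM (± SD over 3 libraries per group), and the fitted log2 difference was 1.15 (SE 0.09, adjusted p = 7.36e-14, edgeR). It was called in all 14 alternatives, between 1.11 and 1.21. Socs3, by contrast, had 3451, 3585 and 3643 counts in WT and 2609, 2148 and 2531 in KD. All KD libraries were under all WT libraries. The level fell from 94.3 ± 2.47 to 64.2 ± 4.94 normalized CPM (± SD over 3 libraries per group), and the fitted log2 difference was −0.56 (SE 0.05, adjusted p = 9.12e-12, edgeR), short of 2-fold, and its values over the alternatives lay between −0.60 and −0.48.

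The promoter of human SOCS1 is shown for the same reason as that of IL6. The window lies at chr16:11256268-11256357, is read on the minus strand and holds 90 bases. Its capitals mark an interferon-stimulated response element, searched on both strands as GAAA, any 2 bases and GAAA again, which begins 113 bases before the start site.

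SOCS1: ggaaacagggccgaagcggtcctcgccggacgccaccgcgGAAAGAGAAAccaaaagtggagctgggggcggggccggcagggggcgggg

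This element was present in 3.57% of all promoters and in 1 of the 13. Neither it nor the NF-kB or STAT site was found in the promoters of SOCS3.

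Pairs of family genes were also compared as ratios of counts within a library, which do not depend on the scaling between libraries. The 5 pairs were chosen after the values were seen. For Il6 to Il11 the ratio was 0.231, 0.249 and 0.237 in WT and 1.46, 1.12 and 0.917 in KD. The mean log2 ratio differed by 2.26 between the groups, with SDs between libraries of 0.055 in WT and 0.336 in KD. For Socs1 to Socs3 the ratio was 0.121, 0.115 and 0.119 in WT and 0.387, 0.393 and 0.376 in KD, a difference of 1.71 on the log2 scale with SDs of 0.037 and 0.032. The ratio of Lifr to Osmr, chains with which gp130 can pair for LIF and for oncostatin M, was 0.0551, 0.0401 and 0.0483 in WT and 0.00393, 0.00896 and 0.00914 in KD. The difference was −2.79 on the log2 scale. For the alpha chains against gp130 the differences were smaller, 0.19 for Il6ra to Il6st and 0.40 for Il11ra1 to Il6st. In all 5 pairs the groups did not overlap, and the exact permutation test, two-sided, gave p = 0.1 for each (0.1 also after Benjamini-Hochberg adjustment over the 5), which is the smallest p that 3 libraries against 3 allow. For single genes tested, 75.6% did not overlap, and this share was not computed for other pairs. Since the pairs were chosen on their values, the separation and its p are a description only.

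**Figure D3:**
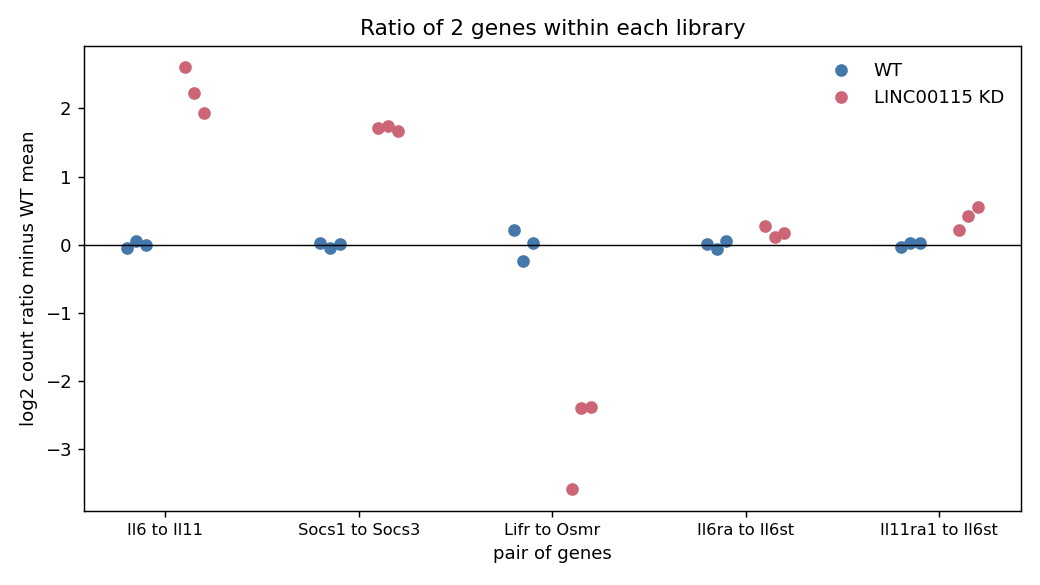
Log2 ratio of the counts of 2 genes within each library, minus the mean of the WT libraries, for the 5 pairs; blue points are WT libraries and red points KD libraries. The KD libraries lie 2.26 above WT on average for Il6 to Il11, 1.71 above for Socs1 to Socs3 and 2.79 below for Lifr to Osmr.

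Most other cytokines and receptors of the family were barely counted. Of 12 listed, 3 passed the filter. Cardiotrophin 1, encoded by Ctf1 and a ligand of the LIF receptor, was counted 169, 263 and 191 times in WT and 80, 66 and 91 times in KD, and was called lower (log2 fold change −1.40, adjusted p = 4.47e-07, edgeR). Clcf1, another ligand of the LIF receptor complex, rose from 41.4 ± 0.853 to 52.2 ± 3.14 normalized CPM (0.34, adjusted p = 4.33e-06). Il27ra, the receptor chain for IL-27, did not pass the test (0.35, adjusted p = 0.234). Clcf1 and Il27ra were named after their values were seen. Osm, the ligand of Osmr, had 7, 14 and 2 counts in WT and 0 in each KD library, where 0 allows up to 3 counts, and it was not tested. Cntfr, the alpha chain for ciliary neurotrophic factor, had 0 or 1 count in every library. Among the 6 other SOCS family genes, 3 were lower at the adjusted p and 0 higher, against 36.7% of all genes tested in each direction. Only Cish, which STAT5 is known to induce, was called, with 183, 165 and 215 counts in WT and 21, 22 and 6 in KD (−3.51, adjusted p = 3.99e-12). The others, named after their values were seen, were Socs5 (−0.64) and Socs2 (−0.34), of which Socs2 did not pass without 4 of the 6 replicates in turn.

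Of 18 genes of the relay below the receptors, which holds JAK kinases, STAT factors, adaptors and their brakes, 11 were lower and 5 higher at the adjusted p, against 36.7% of all genes tested in each direction. Called lower were 2 and called higher 1, against 9.98% and 10.2% of all genes, so the calls were few and near the background. Stat3, the main effector of gp130, fell from 164.5 ± 6.09 to 128 ± 2.10 normalized CPM (± SD over 3 libraries per group), or −0.36 in log2 (adjusted p = 4.97e-10, edgeR), and Jak1, the kinase that gp130 depends on most, from 179 ± 3.98 to 148 ± 5.17 (−0.28, adjusted p = 8.50e-08). The calls lower were Ptpn6, the phosphatase SHP-1 that damps cytokine receptors, from 69.6 ± 2.44 to 12.2 ± 0.988 normalized CPM (−2.51), and the kinase Tyk2, from 50.6 ± 4.22 to 20.6 ± 0.485 (−1.30). The call higher was the adaptor Gab2, from 5.92 ± 0.715 to 14.5 ± 1.53 (1.29). All 3 kept their calls in every alternative in which they were tested. The list's median log2 fold change was −0.32, against −0.01 over all genes tested.

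Genes known as STAT3 targets were also measured. Whether their RNA follows STAT3 activity in these samples was not tested. Socs3, which STAT3 induces, is not in this list, and it was lower (−0.56, as given above). Of 25 genes of the list that were tested, 16 were higher and 6 lower at the adjusted p, against 36.7% of all genes tested in each direction. Called higher were 8 and lower 2, against 10.2% and 9.98% of all genes, and the median log2 fold change was 0.39, against −0.01 over all genes tested. Lbp, the lipopolysaccharide-binding protein, had 9, 21 and 38 counts in WT and 575, 503 and 544 in KD (4.57, adjusted p = 1.70e-19, edgeR), and 5.16 without WT replicate 3. Haptoglobin, Hp, had 15, 23 and 23 counts in WT and 360, 336 and 377 in KD (4.13), and the adhesion molecule Icam1 39, 33 and 37 against 270, 253 and 256 (2.83). Muc1, a membrane mucin, rose by 2.61 on the log2 scale from 1 to 10 counts to 35 to 41. The other 4 called higher, named after their values were seen, were Saa3 (2.54), Serpina3n (2.43), Lcn2 (1.11) and Bcl2l1 (1.01), and Bcl2l1 was under 2-fold with upper quartile scaling (0.97), with library size alone (0.99) and without WT replicate 1 (0.98). The 2 called lower were Ier3, an immediate early gene, from 653 ± 6.54 to 190.5 ± 14.0 normalized CPM (−1.78), and Vegfa, the vascular growth factor that is also a hypoxia target, from 540 ± 38.8 to 161 ± 6.24 (−1.75). Of the 6 lower at the adjusted p, the others were Birc5 (−0.69), Junb (−0.53), Pim1 (−0.49) and Timp1 (−0.20), with 16 of the list higher. These genes were named after their values were seen. The lung and kidney marker sums given above were higher in KD.

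**Figure D4:**
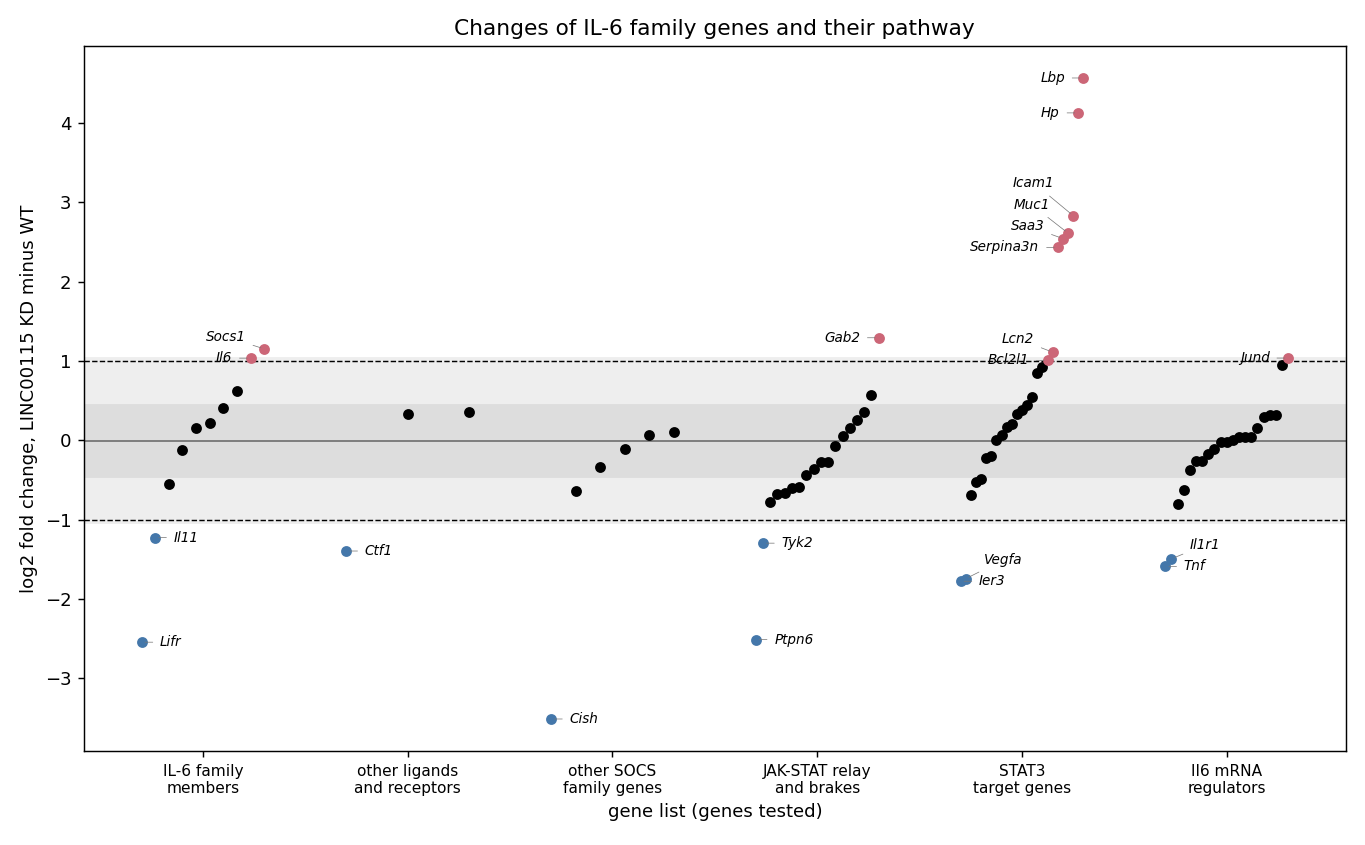
Log2 fold change (KD minus WT) of each gene tested in 6 gene lists, red and named where called higher, blue and named where called lower, black otherwise. Dashed lines mark a fold change of 2, the grey bands hold the central 50 and 80 percent of all genes tested, and the STAT3 target list reaches 4.57 with Lbp while the other SOCS family genes reach −3.51 with Cish.

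Regulators of Il6 transcription and mRNA decay were measured beside the rise of Il6. Of 21 tested, 9 were lower and 5 higher at the adjusted p (36.7% of all genes each), 2 were called lower and 1 higher (9.98% and 10.2% of all genes), with a median log2 fold change of −0.02. Jund, an AP-1 subunit, was called higher, from 155 ± 1.97 to 318 ± 23.6 normalized CPM (1.04, adjusted p = 9.75e-22, edgeR), but was under 2-fold with upper quartile scaling (0.995). Il1r1, the receptor for IL-1, a strong inducer of Il6, was called lower, from 36.9 ± 3.12 to 13.1 ± 1.04 (−1.49). Tnf, another inducer, had 24, 51 and 40 counts in WT and 18, 15 and 5 in KD (−1.59, adjusted p = 0.00585), a call lost without WT replicate 2 (adjusted p = 0.0558). Zc3h12a, which encodes the RNase Regnase-1 that degrades Il6 mRNA, was lower by less than 2-fold (−0.62, adjusted p = 3.16e-13, edgeR). In the same list the transcription regulator Nfkbiz was lower as well (−0.805, adjusted p = 4.64e-17, edgeR). The mRNA decay gene Zfp36 was higher (0.32, adjusted p = 0.000153, edgeR). Zc3h12a, Nfkbiz and Zfp36 were named after their values were seen. Cebpb and Cebpd, also regulators of Il6 transcription, were counted with the STAT3 targets and not in this list. Both were higher by less than 2-fold (0.44, adjusted p = 8.00e-12, and 0.84, adjusted p = 7.86e-14, edgeR), and both were named after their values were seen. The part of these regulators in the rise of Il6 was not tested.

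The genes most like Socs1 over the 6 libraries, by Pearson's r of log2 normalized CPM, were Gm41724, Actr10 and 1110002E22Rik (r = 0.9999, 0.9998 and 0.9996). Among those most like Il11 were Cacnb1 and Fam131b (r = 0.9995 and 0.9988). With 2 groups and 6 libraries such values are common, as 3027 of 13496 genes had an r over 0.95 with Socs1 and 1838 with Il11.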

How the data were processed

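RNA-seq was analysed from 1 table of whole-number counts, deposited by the authors without normalization. They mapped reads with HISAT2, to hg19 by the methods, while the submitters' processing notes list hg38, featureCounts and DESeq2. Both builds are human, unlike the gene names of the counts. Annotation and strand setting are not given in the sources used here, so reads of overlapping or near-identical genes may be split in unknown ways. Each column was assigned by the description in its sample's labels. Groups are those of the sample titles, with 3 libraries each, and no 2 libraries were copies of each other: chi-square over degrees of freedom was 3.94 to 7.95 within groups, where sampling noise alone gives 1.

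The test was that of edgeR 4.0.16 in R 4.3.3 (filterByExpr with a minimum count of 10 and a minimum total of 15, TMM factors from 0.9901 to 1.014, quasi-likelihood test with the group as the only term) and Benjamini-Hochberg adjustment over 13497 genes. The thresholds follow the study's methods. Standard errors were derived from the F statistic, and 95% intervals use the fit's t quantile. At this depth a count of 0 allows up to 3 counts, which covers counting error only. The alternatives were scaling by library size alone, by upper quartile or by DESeq2's size factors, no filter, 10 counts in every sample, DESeq2 1.42.0, edgeR's likelihood ratio test, the replicate number as a block, each replicate left out and, for Il11ra1, a sum with Il11ra2. The 10 genes and all gene lists were chosen with earlier results of these data known. Named are the 10 genes, direct partners, and up to 4 called genes per list and direction. Levels were not compared between genes, since no mouse transcript lengths were used. Of the other family genes, the relay list and the genes most like Il11, 1 each is not reported here, and the counts of both lists leave it out. Promoters are from RefSeq.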

Additional observations from a re-analysis of the deposited data

How the results depend on the processing

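Over 14 alternatives for each of the 10 genes (13 for Lifr and 15 for Il11ra1), all 140 fits kept the direction, and 131 also kept the side of the thresholds. The 9 others were those of Il6, Lif and Osmr given above. Members called lower numbered 2, except 1 with at least 10 counts in every sample, since Lifr was then not tested, and 4 with no fold threshold. Members called higher numbered 2, except 1 with upper quartile scaling, 6 with no fold threshold and 1 to 2 with each replicate left out (1 without WT replicate 3, KD replicate 1 or KD replicate 2, in each case without Il6). Over all genes, 903 were called higher when at least 10 counts were asked of every sample, a filter that tests fewer genes, and other counts stayed within 1.5 times. Upper quartile scaling moved the median of all genes to −0.05. The replicate numbers did not pair the libraries, with correlations of same-numbered deviations of 0.014, −0.019 and −0.020. With the replicate block, 1316 genes were called lower and 1360 higher, and the members called were again 2 and 2. Depth limits Lifr most, with 7 to 15 counts in the KD libraries.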
